A study of Rattus norvegicus with 18 samples.

Results

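Transcripts of 8 genes that mark excitatory cortical neurons or striatal projection neurons were followed across the rat hypothalamus samples, as a check of what the dissected tissue held. The members were all probe sets whose single platform symbol was Neurod2, Neurod6, Slc17a7, Adora2a, Drd1, Drd2, Ppp1r1b or Rgs9, which gave 12 probe sets of 31099 on the array, for 8 genes. Of these, 4 probe sets belong to the 3 cortical genes and 8 to the 5 striatal genes. The study profiled subcutaneous abdominal fat and hypothalamus of rats after Roux-en-Y gastric bypass (RYGB), a weight-loss operation, on 18 Affymetrix arrays, 9 per tissue and 3 per group.

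The groups are named as in the labels. RYGB-Success rats were losing weight after the bypass, RYGB-Fail rats were gaining weight, and Pair-Fed rats received the amount of food that the treated rats ate. The labels do not say whether the Pair-Fed rats had a sham operation, and they give no strain, age, time after surgery or dissection limits. The series design calls the 3 samples of a group biological replicates, but no label says whether each came from a single animal, so p-values measure the spread between these samples. The deposited values were scaled to a common trimmed mean, and the median signal of the hypothalamus arrays lay between 91.1 and 127.

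Neurod2 and Neurod6 are basic helix-loop-helix transcription factors of maturing and mature excitatory neurons in cortex and hippocampus, and Slc17a7 encodes VGLUT1, the vesicular glutamate transporter of most cortical neurons. Striatal projection neurons receive dopamine through the receptors encoded by Drd1 and Drd2 and adenosine through Adora2a. These receptors act on cyclic AMP, with DARPP-32 (Ppp1r1b) as an inhibitor of protein phosphatase downstream and Rgs9 as a brake on the G proteins. The hypothalamus lies below the thalamus and close to the ventral striatum, and its own glutamatergic neurons mostly use VGLUT2 (Slc17a6).

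The labelled tissue was checked first against hypothalamic genes. Pmch, the melanin-concentrating hormone precursor of the lateral hypothalamus, had signals from 2101 to 20005 over the 9 arrays. Oxt, the oxytocin precursor, ranged from 359.9 to 5588, and Nkx2-1, a transcription factor of the developing and adult ventral hypothalamus, from 199 to 526. Avp, the vasopressin precursor, lay between 485 and 4851, and Npy, an appetite-stimulating neuropeptide, between 605 and 1280.4. Pomc, the melanocortin precursor of the arcuate nucleus, was at 3.66 to 62.7 and below the filter on low signal, and no probe set carried the single symbol Agrp. Of the hypothalamic list, 18 of the 24 genes on the array passed the filter.

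All 8 cortical and striatal genes also had a probe set that passed the filter on low signal in these samples. Which region's cells gave that signal was not tested. For each gene with more than 1 probe set, the probe set with the highest mean log2 signal in hypothalamus stands for the gene unless said otherwise. Signals of different probe sets are not on one scale, so no gene's level is set against another's. Ppp1r1b had a hypothalamus minus fat difference of 5.69 ± 0.51 on the log2 scale (SE, adjusted p = 1.69e-08, limma over 9 against 9 arrays), and its lowest hypothalamus signal of 553 was above its highest fat signal of 129. Drd1 differed by 4.09 ± 0.53 (adjusted p = 2.01e-06, limma), with a lowest hypothalamus signal of 399.8 and a highest fat signal of 392. These were the 2 members whose 9 hypothalamus arrays all lay above every fat array, as did 13.1% of all 18625 probe sets. The other 6 genes overlapped with fat on at least 1 array: their differences ran from 1.88 for Neurod2 (adjusted p = 0.0139, limma without the filter, which Neurod2 did not pass over all 18 arrays) to 3.90 for Slc17a7 (adjusted p = 1.44e-05). In the same comparison 28.2% of probe sets were called higher in hypothalamus. Because the probe set was picked for its brightness in hypothalamus, these differences describe the probe sets used.

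The second probe sets behaved otherwise. Those of Slc17a7, Adora2a and Rgs9 differed between hypothalamus and fat by -0.23, -0.01 and -0.12 log2 units, with adjusted p = 0.789, 0.983 and 0.875 in limma without the filter. The second Drd1 probe set differed by 0.97 (adjusted p = 0.296, limma). The second probe sets of Slc17a7 and Rgs9 also failed the filter on mean signal in hypothalamus, which kept the upper 60% of probe sets. That left 10 of the 12 members in the tests between groups, with all 8 genes represented.

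**Figure D1:**
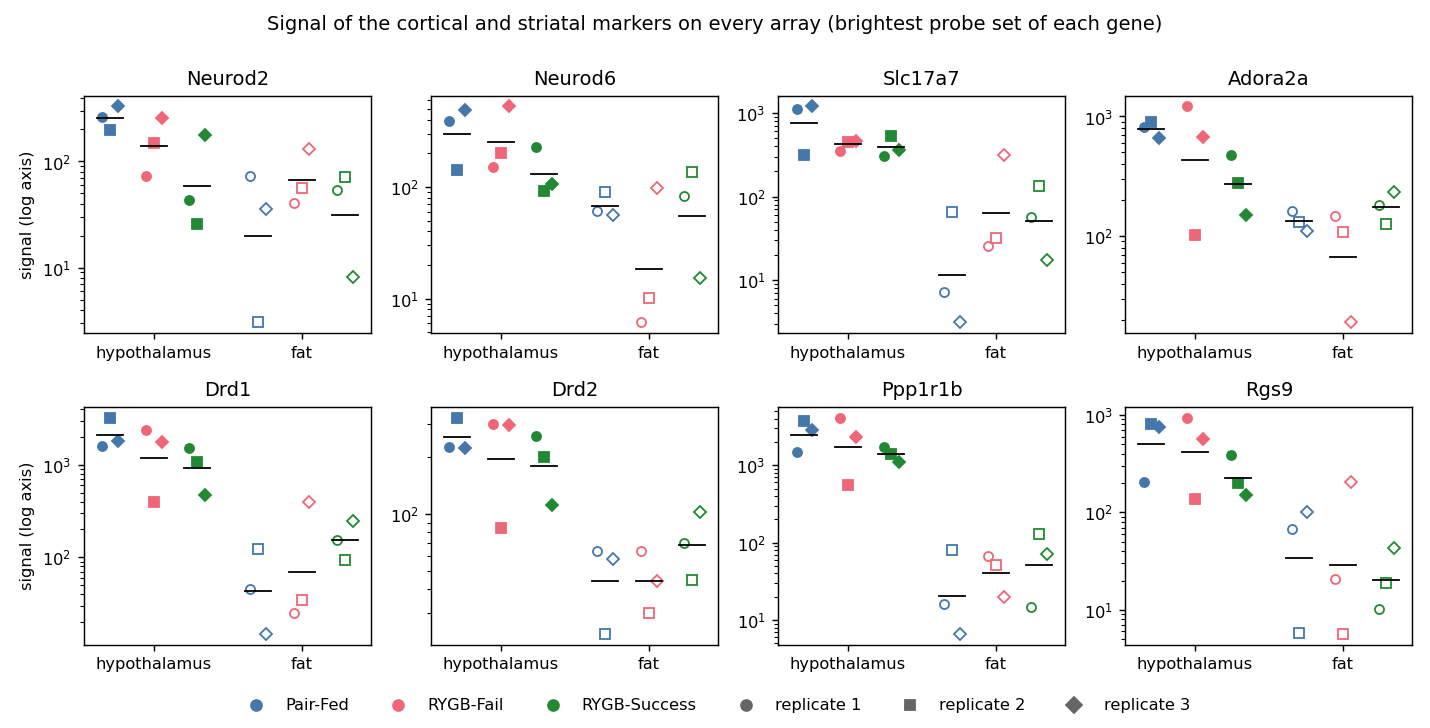
Signal of the brightest probe set of each gene on all 18 arrays (log axis, each panel with its own range); filled symbols are hypothalamus, open symbols fat, colours mark the groups, symbol shapes the replicate numbers and bars the geometric means. RYGB-Fail 2 (red square) is the lowest hypothalamus array in all 5 striatal panels, while the cortical panels have other arrays at the bottom.

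Among the cortical genes, Neurod2 had signals of 263, 196 and 330.0 in the 3 Pair-Fed samples, 72.4, 149 and 254 in RYGB-Fail, and 43.7, 25.9 and 177 in RYGB-Success. Every RYGB-Success sample was below every Pair-Fed sample, whereas RYGB-Fail overlapped with both. The RYGB-Success minus Pair-Fed difference was -2.14 ± 0.62 log2 units (SE, n = 3 and 3, 95% confidence interval -3.46 to -0.82), with an unadjusted p of 0.00375 and an adjusted p = 0.229 in limma, so it did not pass. Without RYGB-Success 3 the difference was -2.94, and with every array held at no less than the filter signal it was -1.70. In bulk tissue, fewer cells of a type and less RNA per cell cannot be told apart, here or in any later comparison.

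Neurod6, the related factor of cortical and hippocampal pyramidal neurons, had signals of 387, 142 and 486 in Pair-Fed, 153, 201 and 529 in RYGB-Fail, and 228, 92.0 and 107 in RYGB-Success. The groups overlapped, and the highest value of all 9 was RYGB-Fail 3. RYGB-Success minus Pair-Fed was -1.19 ± 0.53 (SE, adjusted p = 0.368, limma).

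Slc17a7 had signals of 1107, 317 and 1197 in Pair-Fed, 353, 451 and 468 in RYGB-Fail, and 308, 524 and 359.7 in RYGB-Success. Pair-Fed 1 and Pair-Fed 3 stood above the other 7 arrays, while Pair-Fed 2 lay at the low end with the RYGB samples. The difference was -0.95 ± 0.42 for RYGB-Success and -0.83 ± 0.42 for RYGB-Fail, each minus Pair-Fed (SE, adjusted p = 0.364 and 1.00, limma). Without Pair-Fed 2 these were -1.57 and -1.45, and without Pair-Fed 3 they were -0.61 and -0.49. Its second probe set, at 4.66 to 66.3 and below the filter, had a RYGB-Success minus Pair-Fed difference of -1.44 ± 1.01 (SE, unfiltered).

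The striatal receptors followed. Drd1, the dopamine receptor of the direct-pathway neurons, had signals of 1577, 3229.8 and 1810.2 in Pair-Fed, 2344, 399.8 and 1747 in RYGB-Fail, and 1526, 1064 and 476 in RYGB-Success. All RYGB-Success samples were below all Pair-Fed samples, with 1526 and 1577 as the closest pair, and the lowest of the 9 was RYGB-Fail 2. RYGB-Success minus Pair-Fed was -1.19 ± 0.56 (SE, 95% confidence interval -2.39 to 0.01, adjusted p = 0.384, limma), and -0.72 without RYGB-Success 3.

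The second Drd1 probe set had signals of 602, 928 and 279 in Pair-Fed, 805, 111 and 688 in RYGB-Fail, and 257, 182 and 2.41 in RYGB-Success. Its lowest value, in RYGB-Success 3, set a large part of its RYGB-Success minus Pair-Fed difference of -3.48 ± 1.31 (SE, adjusted p = 0.306, limma). Without that sample the difference was -1.32, and with arrays held at the filter signal it was -1.99. The mean of both Drd1 probe sets gave -2.33.

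Drd2, the dopamine receptor of the indirect-pathway neurons and an autoreceptor of dopamine neurons, had signals of 228, 325 and 225 in Pair-Fed, 300.2, 84.1 and 299 in RYGB-Fail, and 261, 201 and 111 in RYGB-Success. RYGB-Fail 2 and RYGB-Success 3 were the low samples, and the groups overlapped. The RYGB-Success minus Pair-Fed difference of -0.51 ± 0.46 (SE, 95% confidence interval -1.50 to 0.49, adjusted p = 0.655, limma) was the smallest in size among the 10 members tested. Without RYGB-Success 3 it was -0.16, without Pair-Fed 2 -0.33 and without RYGB-Success 1 -0.77.

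Adora2a, the adenosine receptor of the indirect-pathway neurons, had signals of 823, 891 and 665 in Pair-Fed, 1214, 101 and 669.5 in RYGB-Fail, and 479.5, 278 and 149 in RYGB-Success. The RYGB-Success samples were all below the Pair-Fed samples, and RYGB-Fail held both the highest and the lowest of the 9. Its RYGB-Success minus Pair-Fed difference was -1.54 ± 0.67 (SE, adjusted p = 0.363, limma).

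The second Adora2a probe set went the other way, with 48.0, 38.2 and 22.2 in Pair-Fed, 81.1, 31.6 and 80.0 in RYGB-Fail, and 71.0, 94.4 and 77.3 in RYGB-Success. Here RYGB-Success was above Pair-Fed in every sample (1.22 ± 0.56, SE, adjusted p = 0.376, limma). In fat the same probe set gave signals of 33.8 to 121. Held at the filter signal, the difference was 0.61. The 2 probe sets of this gene thus differ in sign, and their mean gave -0.16 (adjusted p = 0.923, limma).

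Ppp1r1b, which encodes DARPP-32, had signals of 1461, 3689.5 and 2837 in Pair-Fed, 4111, 553 and 2305 in RYGB-Fail, and 1725, 1405 and 1103 in RYGB-Success. RYGB-Fail 1 was the highest and RYGB-Fail 2 the lowest, and Pair-Fed 1 lay within the RYGB-Success range. RYGB-Success minus Pair-Fed was -0.84 ± 0.55 (SE, 95% confidence interval -2.01 to 0.34, adjusted p = 0.526, limma), and -0.55 without Pair-Fed 2.

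Rgs9, the regulator of G-protein signalling enriched in striatum, had signals of 204, 818 and 756 in Pair-Fed, 939.9, 136 and 565 in RYGB-Fail, and 388, 203 and 151 in RYGB-Success. Its order over the 9 arrays was the same as that of Ppp1r1b. RYGB-Success minus Pair-Fed was -1.14 ± 0.65 (SE, adjusted p = 0.468, limma). The second Rgs9 probe set, at 17.7 to 74.0 and below the filter, differed by 0.29 ± 0.75 (SE, unfiltered), and the mean of both gave -0.42. Without Pair-Fed 1 the first probe set differed by -1.79.

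In RYGB-Success against Pair-Fed, 0 of the 10 members tested passed an adjusted p of 0.05, and 0.0107% of all 18625 probe sets did, namely Pkig and Alox15. At an unadjusted p under 0.05 there were 6 of 10 members, against 13.1% of all probe sets. The difference was below 0 for 9 of 10 members, against 45.6% of probe sets, and the members' median was -1.16, beside 0.05 over all probe sets tested. The groups did not overlap for 4 members in the lower direction (Neurod2, Adora2a and both probe sets of Drd1), where the share of all probe sets was 7.28%. In the higher direction this held for 1 member, where the share was 10.8%. That member was the second Adora2a probe set, with geometric mean signals of 34.4 in Pair-Fed, 59.0 in RYGB-Fail and 80.3 in RYGB-Success. The filter signal was 52.7, so its place among the 10 rests on the groups where it is high, and it gives no support. These counts describe probe sets that share samples and, for 2 genes, a transcript. The members were chosen with earlier results of these data known, so the shares over all probe sets describe and do not test. Centring each array on its median moved the median of all probe sets to -0.19 and that of the members to -1.40, and quantile normalization gave -0.01 and -1.17, so the members' median stayed lower than that of all probe sets under both.

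RYGB-Fail against Pair-Fed gave smaller differences. None of the 10 members passed, and 0% of all probe sets did. At an unadjusted p under 0.05 the count was 0 members, against 2.39% of probe sets. The 8 genes differed by -0.88 (Neurod2), -0.24 (Neurod6), -0.83 (Slc17a7), -0.83 (Drd1), -0.38 (Drd2), -0.85 (Adora2a), -0.52 (Ppp1r1b) and -0.27 (Rgs9) on the log2 scale. The difference was below 0 for 9 of 10 members, against 45.6% of probe sets, and the median over the 10 members was -0.48. Without RYGB-Fail 2 the median was 0.21, with 4 of 10 members below 0, against 44.8% of probe sets. All 10 members overlapped between these groups, while 3.36% of probe sets were apart in the lower and 5.81% in the higher direction. Without that sample Adora2a, Drd2, Ppp1r1b and Rgs9 had differences of 0.20, 0.23, 0.31 and 0.54, Drd1 was at -0.05, and the second Adora2a probe set lay above 0 with and without it.

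In RYGB-Success against RYGB-Fail, 0 of 10 members passed (0.00537% of all probe sets), and 1, the second Drd1 probe set, had an unadjusted p under 0.05 (6.01% of all). The difference was below 0 for 9 of 10 members (48.4% of all), and the groups overlapped for all 10 (4.69% of all were apart lower and 5.84% higher). Adjusted p ran from 0.784 to 0.962 in limma. Neurod2 differed by -1.26 and Neurod6 by -0.95, while Slc17a7 and Drd2 differed by -0.12 each, with 95% confidence intervals of -1.02 to 0.78 and -1.12 to 0.87. The members' median was -0.52, and -1.14 without RYGB-Fail 2. A moderated F test over the 3 groups gave the members adjusted p between 0.552 and 0.884 (limma), where 0.0107% of all probe sets passed; Neurod2 and the second Drd1 probe set had an unadjusted p under 0.05, as did 7.68% of all. Both RYGB groups were set against the same Pair-Fed samples, so their differences from Pair-Fed share those values.

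**Figure D2:**
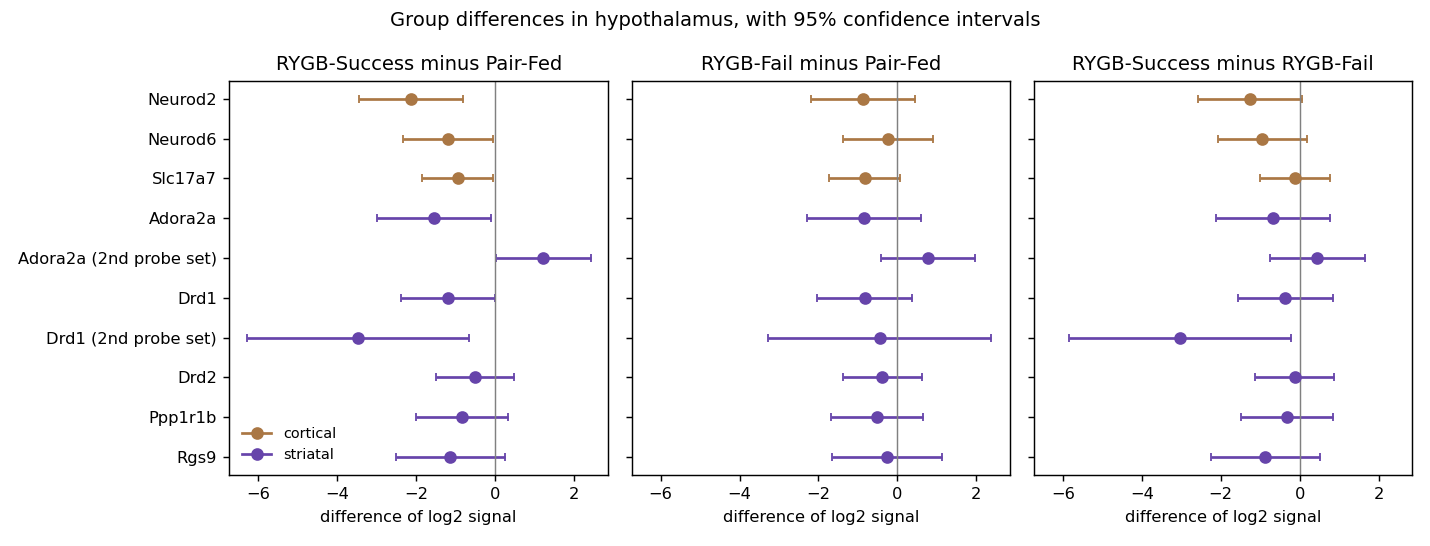
Differences of log2 signal between hypothalamus groups for the 10 members tested, with 95% confidence intervals from limma (horizontal axis, log2 units; vertical line at 0). In RYGB-Success minus Pair-Fed, 9 of 10 points lie below 0, the second Adora2a probe set lies at 1.22, and the second Drd1 probe set has the widest interval.

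The members spread widely over the 9 hypothalamus arrays. The highest over the lowest signal, across all groups, was 12.8-fold for Neurod2, whose lowest values of 25.9 and 43.7 lay below the filter signal of 52.7, 11.97-fold for Adora2a, 8.08-fold for Drd1, 7.44-fold for Ppp1r1b, 6.91-fold for Rgs9, 5.74-fold for Neurod6, 3.88-fold for Slc17a7 and 3.86-fold for Drd2. Within groups, the median SD was 0.98 log2 units over the 10 members tested, beside 0.38 over all probe sets tested. Among all probe sets tested, this spread placed Slc17a7 at percentile 87.2 and the other 7 genes at percentiles 90.3 to 98.1.

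The 5 striatal genes put the arrays in nearly the same order. RYGB-Fail 2 was the lowest array for 5 of 5 genes, RYGB-Success 3 the second lowest for 5 of 5, and RYGB-Success 2 the third lowest for 5 of 5. RYGB-Fail 1 was the highest for 3 genes (Adora2a, Ppp1r1b and Rgs9) and Pair-Fed 2 for the other two. The low arrays thus came from both RYGB groups, and RYGB-Fail held the extremes at either end. The mean log2 signal of the 5 striatal genes was 9.26, 10.27 and 9.81 in Pair-Fed, 10.31, 7.58 and 9.74 in RYGB-Fail, and 9.37, 8.79 and 8.05 in RYGB-Success.

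The cortical genes had a different order. Pair-Fed 3 was the highest array for 2 of 3 genes and RYGB-Fail 3 for 1, with Pair-Fed 1 among the highest 3 for all 3. RYGB-Fail 2, the lowest array for every striatal gene, ranked 4th or 5th of 9 from the bottom for the cortical genes. Pair-Fed 2 and RYGB-Fail 1, the highest for the striatal genes, ranked between 2nd and 6th. The mean log2 signal of the 3 cortical genes was 8.92, 7.69 and 9.17 in Pair-Fed, 7.30, 7.90 and 8.64 in RYGB-Fail, and 7.18, 6.75 and 7.57 in RYGB-Success.

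Correlations over the 9 hypothalamus arrays were computed for all 28 pairs of the 8 genes, with exact permutation tests adjusted over the 28 pairs. All 10 striatal pairs passed: Pearson's r lay between 0.82 and 0.97 (adjusted p from 7.72e-05 to 0.0140, exact two-sided permutation) and Spearman's rho between 0.88 and 1 (adjusted p from 0.000154 to 0.00861, exact two-sided permutation). Ppp1r1b and Rgs9 had r = 0.94 and rho = 1. Leaving out the 2 arrays farthest from the median of the first gene left r between 0.65 and 0.97. As deviations from group means, pooled over the groups and with RYGB-Fail 2 included, r was 0.80 to 0.99. All striatal genes ordered the samples alike inside RYGB-Fail and inside RYGB-Success. Inside Pair-Fed they did not: Adora2a and Drd2 were lowest in Pair-Fed 3, and Drd1, Ppp1r1b and Rgs9 in Pair-Fed 1.

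These correlations used the 2 low arrays. Over the 7 arrays without RYGB-Fail 2 and RYGB-Success 3, a choice made after seeing the data, r was 0.65 to 0.96, 5 of 10 striatal pairs had an unadjusted p under 0.05 and 0 of 10 passed, with adjusted p from 0.05 to 0.264 in exact permutation tests. The 3 cortical pairs had r of 0.47 to 0.63 over 9 arrays and none passed (adjusted p from 0.169 to 0.397, exact permutation; unadjusted p of 0.0665 at the lowest). The 15 pairs of a cortical with a striatal gene had r from -0.07 to 0.39, and none passed (adjusted p from 0.611 to 0.981, exact permutation). Quantile normalization and median centring kept the striatal r between 0.82 and 0.98.

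**Figure D3:**
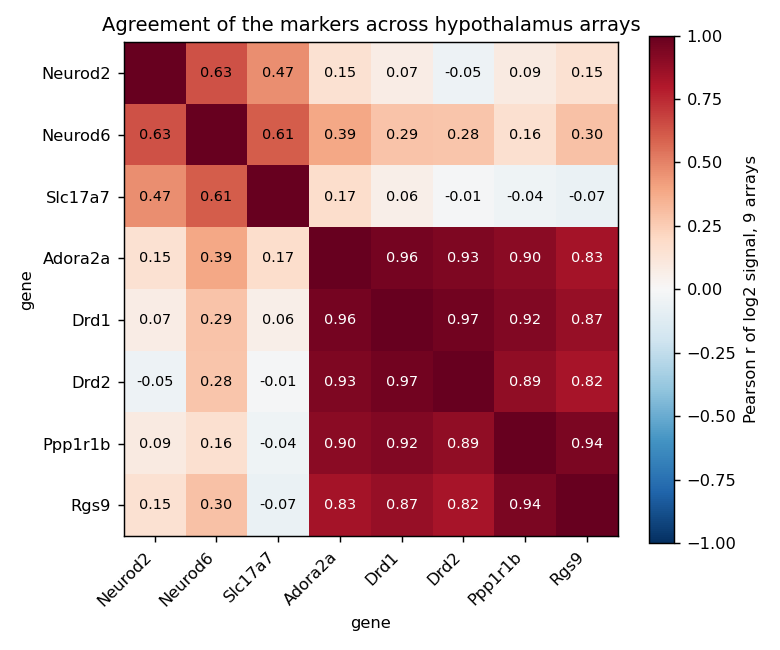
Pearson's r of log2 signal over the 9 hypothalamus arrays for each pair of the 8 genes (colour and number; both axes list the genes). The block of 5 striatal genes holds values from 0.82 to 0.97, the 3 cortical pairs lie between 0.47 and 0.63, and the pairs across both sets between -0.07 and 0.39.

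**Figure D4:**
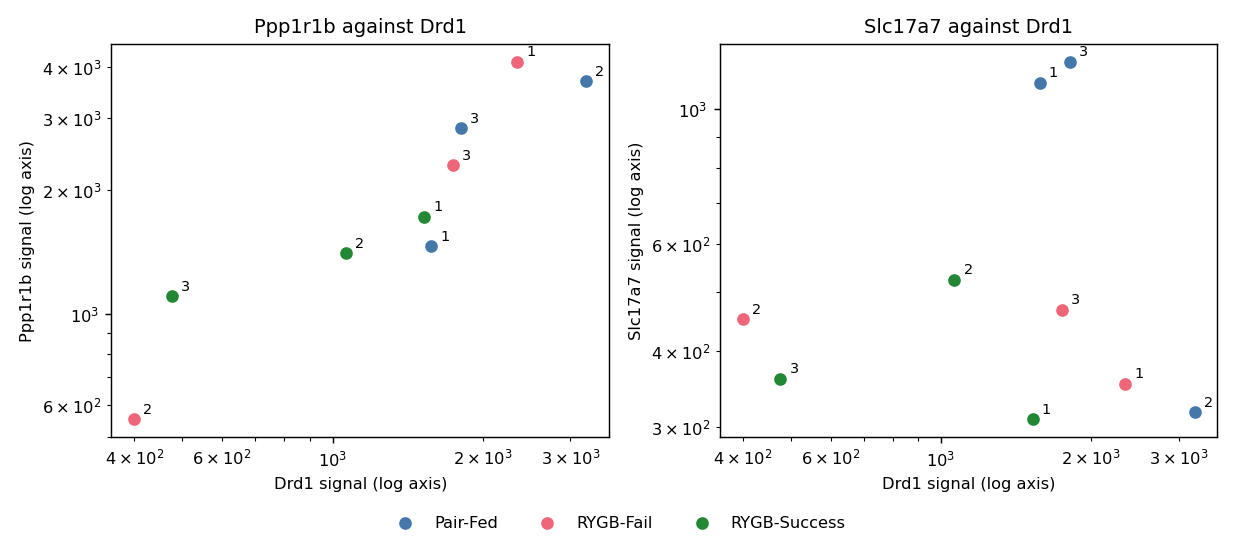
Signal of Ppp1r1b (left) and Slc17a7 (right) against Drd1 on the 9 hypothalamus arrays (log axes; colours mark groups, numbers the replicates). Ppp1r1b is higher on arrays with higher Drd1 (r = 0.92), whereas Slc17a7 is highest on 2 Pair-Fed arrays in the middle of the Drd1 range (r = 0.06).

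Upstream sequences of striatal genes are shown, as RefSeq gives them for GRCr8, for 250 bases before the annotated gene start, 5′ to 3′ on the gene's strand. Whether these sequences had a part in the genes' common order over the arrays was not tested. The table matched 6 of the 8 genes, and 3 striatal ones are printed. Capitals mark matches, on either strand, to a GC box (GGGCGG) or to CAGATG, an E-box that NeuroD factors can bind.
Drd1 (GRCr8, chr17:10546354-10546603, plus strand): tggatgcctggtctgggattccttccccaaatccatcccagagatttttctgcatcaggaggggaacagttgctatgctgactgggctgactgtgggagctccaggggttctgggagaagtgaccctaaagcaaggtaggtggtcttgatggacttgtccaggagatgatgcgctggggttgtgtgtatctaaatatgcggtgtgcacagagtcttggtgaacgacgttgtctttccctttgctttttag
Drd2 (GRCr8, chr8:58605153-58605402, plus strand): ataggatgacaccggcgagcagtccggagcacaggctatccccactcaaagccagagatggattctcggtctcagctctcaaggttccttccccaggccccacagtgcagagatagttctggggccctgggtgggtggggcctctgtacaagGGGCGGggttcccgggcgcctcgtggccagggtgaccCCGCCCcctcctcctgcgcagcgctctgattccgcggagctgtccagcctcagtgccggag
Rgs9 (GRCr8, chr10:94770388-94770637, minus strand): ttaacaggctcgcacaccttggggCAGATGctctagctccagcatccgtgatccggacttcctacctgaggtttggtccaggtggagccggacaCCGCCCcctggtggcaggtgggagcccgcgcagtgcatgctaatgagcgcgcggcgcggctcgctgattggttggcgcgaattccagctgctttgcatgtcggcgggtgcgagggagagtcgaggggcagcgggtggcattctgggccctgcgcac

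The windows differ in these letters. They lie before annotated starts, and whether transcription began at those starts in these samples was not tested. Drd1 has 51.2% G and C and none of the motifs searched, Drd2 has 66.0% and 2 GC boxes, and Rgs9 has 65.6% with 1 GC box and 1 CAGATG. Of 33469 promoter windows of the same length, 30.5% hold GGGCGG and 14.0% hold CAGATG. The motifs also searched were TATAAA (12.9% of windows), the cyclic AMP response element TGACGTCA (1.59%) and its core TGACG (18.2%), which lies inside the longer one. None of these occurred in the 3 windows printed. The Neurod6 window held 1 TGACGTCA and 2 CAGATG. The Neurod2 window held 1 TGACG, 1 CAGATG and 2 GC boxes, and the Slc17a7 window 3 GC boxes. A match describes these letters only.

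The genes most like the members over the 9 arrays were found by Pearson's r to the members' mean standardized profile. For the striatal profile these were Krt71, Myo5b, Wwc1 and Meis2 (r = 0.97 each) and Ankrd63 (r = 0.96). Ankrd63 had signals of 1749, 2241 and 2031 in Pair-Fed, 2242, 346 and 2187 in RYGB-Fail, and 1446, 837 and 363 in RYGB-Success. Meis2, a homeobox factor of developing striatal neurons, ranged from 476 in RYGB-Fail 2 to 1854 in Pair-Fed 2. For the cortical profile they were Scn3b (r = 0.96), a sodium channel subunit, Ryr2 (0.95), a calcium release channel, Anxa11 (0.94), Pgm2l1 (0.93) and Nktr (0.93). Scn3b had signals of 1082, 699.8 and 1094 in Pair-Fed, 616, 589 and 872 in RYGB-Fail, and 551, 457 and 589.7 in RYGB-Success. These correlations describe the arrays and share their scaling, and they were picked as the highest of 18625.

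Other genes of striatal projection neurons, from a list of 30 of which 27 were on the array and 25 were tested, followed the same arrays. Of the 25, 18 (72%) had r above 0.7 with the striatal profile, beside 4.25% of all probe sets tested, with a median r of 0.83. Without the 2 low arrays this was 15 of 25 (60%), beside 6.13% of all. The lists too were chosen with earlier results of these data known, so such shares describe and do not test. Penk, the enkephalin precursor, had signals of 3103, 6825 and 6226 in Pair-Fed, 8772, 1647 and 6461 in RYGB-Fail, and 5936, 3977 and 2063 in RYGB-Success. Pde10a, a phosphodiesterase of striatal neurons, had 6934, 7343 and 5874, then 7019, 2498 and 6703, then 5756, 2777 and 2191 in the same order of groups. For both genes the same 2 samples were the lowest, though in the other order for Pde10a. Penk was chosen for mention after its values were seen.

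None of these 25 genes passed in RYGB-Success against Pair-Fed in limma, 5 had an unadjusted p under 0.05 (13.1% of all probe sets), and 23 lay below 0 (45.6% of all), with a median of -0.58. Bcl11b (CTIP2), a transcription factor of striatal and deep-layer cortical neurons, differed by -1.36 ± 0.39, with adjusted p = 0.229. Its signals were 4285, 5465 and 4625 in Pair-Fed, 4634, 1864 and 4286 in RYGB-Fail, and 2915, 2357 and 938 in RYGB-Success, so RYGB-Success lay below Pair-Fed in all samples. Scn4b, a sodium channel subunit, differed by -0.85 ± 0.30 (adjusted p = 0.288) and Strn, the scaffold protein striatin, by -0.68 ± 0.21 (adjusted p = 0.238). Without RYGB-Fail 2 and RYGB-Success 3, when 26 of the genes were tested, 25 of 26 lay below 0 with a median of -0.33.

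Of the other cortical and hippocampal genes, 20 were tested, none passed in RYGB-Success against Pair-Fed, 6 had an unadjusted p under 0.05 (13.1% of all probe sets) and 15 lay below 0 (45.6% of all), with a median of -0.65. Crym, a thyroid hormone binding protein, had signals of 6275, 3766 and 4663 in Pair-Fed, 4192, 1475 and 4470.4 in RYGB-Fail, and 2407, 1497 and 803 in RYGB-Success (-1.75 ± 0.42, adjusted p = 0.215, limma). Zbtb20, Emx2 and Zbtb18, transcription factors of the forebrain, differed by -0.95, -0.89 and -0.68 with adjusted p of 0.231, 0.253 and 0.334. Over 9 arrays, 1 of the 20 (5%) had r above 0.7 with the cortical profile, beside 1.98% of all probe sets, and 5 (25%) with the striatal profile, beside 4.25%. Without RYGB-Fail 2 and RYGB-Success 3 the order turned: 6 (30%, beside 4.96%) had it with the cortical profile and 2 (10%, beside 6.13%) with the striatal profile. RYGB-Fail 2 was the lowest array in the mean of this list, at 8.11 log2 units, which was its place in the striatal lists and not in the mean of the 3 cortical members. That mean took in 23 genes, also those below the filter, and Emx1, 1 of the latter, had a signal of 1.10 on RYGB-Fail 2.

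Lists for neighbouring regions and other cell types were read on the same arrays, with the mean log2 signal over a list's genes on the array. The hypothalamic list was at 7.01 to 7.36 in Pair-Fed, 7.27 to 8.04 in RYGB-Fail and 7.74 to 8.12 in RYGB-Success. RYGB-Success was above Pair-Fed in every sample there, the reverse of Neurod2, Drd1 and Adora2a. Of 18 hypothalamic genes tested in RYGB-Success against Pair-Fed, 2 lay below 0 (45.6% of all probe sets) and 16 above, with a median of 0.98, 13 had an unadjusted p under 0.05 (13.1% of all) and none passed. Hcrt, the orexin precursor, had signals of 69.0, 48.0 and 51.7 in Pair-Fed, 168, 526 and 121 in RYGB-Fail, and 644, 271 and 657 in RYGB-Success (3.13 ± 0.49, adjusted p = 0.0887, limma). Pmch had 4391, 5111 and 2101, then 9183, 8492 and 5419.7, then 10581, 9914 and 20005 (1.83 ± 0.34, adjusted p = 0.173, limma). Median r of the 18 genes was -0.59 with the cortical profile and -0.37 with the striatal profile.

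Midbrain dopamine neuron markers had nearly the reverse order of arrays. Their mean log2 signal over 10 genes was 7.08, 6.70 and 6.99 in Pair-Fed, 6.02, 7.92 and 7.19 in RYGB-Fail, and 7.09, 8.17 and 8.20 in RYGB-Success, so the 3 arrays lowest in striatal genes were the 3 highest here. Slc6a3, the dopamine transporter, had signals of 1019, 51.4 and 590.2 in Pair-Fed, 65.1, 2536 and 532 in RYGB-Fail, and 1133, 1826 and 4993 in RYGB-Success. The 2 arrays lowest in Slc6a3, Pair-Fed 2 and RYGB-Fail 1, were the 2 highest for Drd1, and the 3 highest were the 3 lowest for Drd1. The 7 genes tested had a median r of -0.77 with the striatal profile, and -0.75 without RYGB-Fail 2 and RYGB-Success 3. In RYGB-Success against Pair-Fed, 1 of 7 lay below 0 (45.6% of all probe sets) and 6 above, with a median of 1.04, and none passed (3 at an unadjusted p under 0.05, 13.1% of all, limma), with Ret at 1.11 ± 0.29 and Aldh1a1 at 1.04 ± 0.34.

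Thalamic markers were at 8.88 to 9.16 in Pair-Fed, 9.03 to 9.45 in RYGB-Fail and 9.23 to 9.55 in RYGB-Success over 13 genes. In RYGB-Success against Pair-Fed, 3 of 11 tested lay below 0 (45.6% of all probe sets) and 8 above, with a median of 0.32. None passed, and 2 had an unadjusted p under 0.05 (13.1% of all, limma). Endothelial and blood markers were at 8.26 to 8.65, 7.90 to 9.17 and 9.24 to 10.43 over 7 genes, with Hbb, a haemoglobin chain, at 24317 in RYGB-Success 3. In RYGB-Success minus Pair-Fed the blood genes S100a8, Alas2 and Hbb differed by 4.36, 3.13 and 1.45. The endothelial genes Cldn5, Flt1, Tek and Pecam1 differed by 0.54, 0.43, 0.13 and -0.01, and none of the list passed. General neuron markers stayed within 11.08 to 11.54 over the 9 arrays, astrocyte markers within 11.85 to 12.29 and oligodendrocyte markers within 11.27 to 11.60. Pituitary markers had 1 of 9 genes above the filter, Tshb, and microglia markers were at 6.49 to 7.49. Choroid plexus and ependyma markers were at 7.32 to 8.03 in Pair-Fed, 8.28 to 8.53 in RYGB-Fail and 8.09 to 8.42 in RYGB-Success. RYGB-Success 3 also had the lowest 3′ to 5′ ratio of the actin control probe sets, at 6.65 of a range up to 179, and the lowest array weight in limma, at 0.33. The part that tissue from other regions, blood or array quality had in the members' values was not tested.

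**Figure D5:**
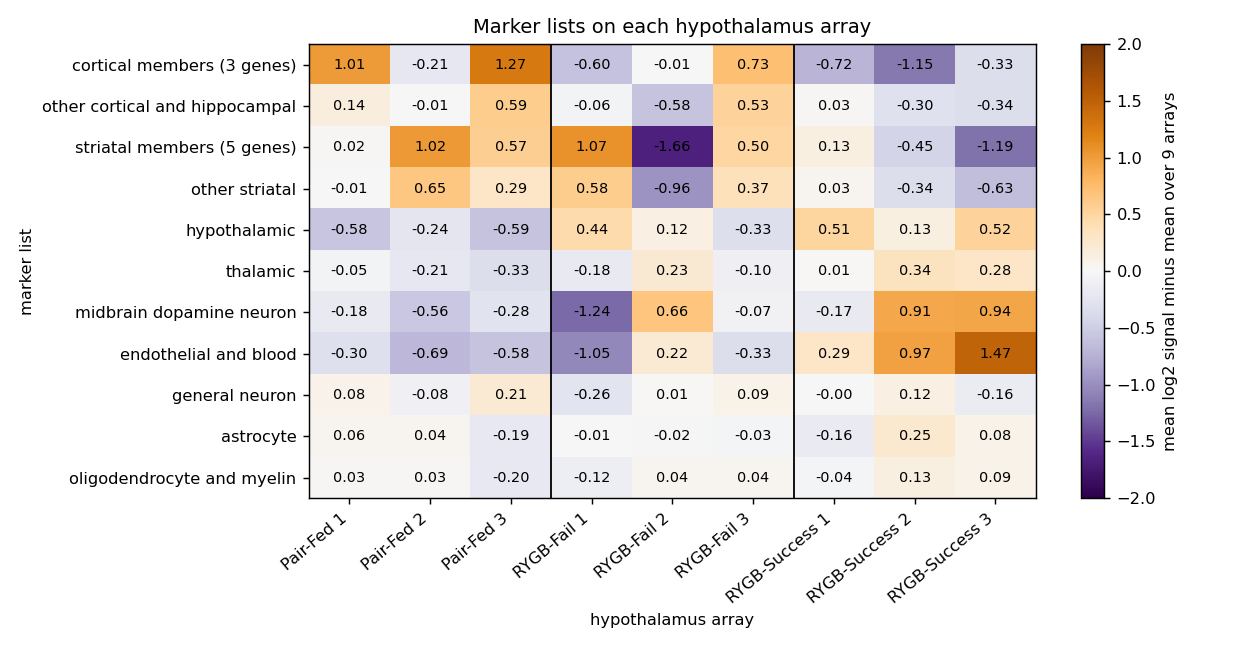
Mean log2 signal of each marker list on each hypothalamus array, minus the mean over the 9 arrays (colour and number; columns are arrays, vertical lines part the groups). The striatal members and the other striatal genes are lowest on RYGB-Fail 2 (-1.66 and -0.96) and RYGB-Success 3 (-1.19 and -0.63), where the midbrain dopamine neuron list is at 0.66 and 0.94; the general neuron, astrocyte and myelin lists stay between -0.26 and 0.25.

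Relatives of the members were read on the same arrays. Slc17a6, the VGLUT2 transporter, had signals of 5511, 5575 and 4144 in Pair-Fed, 4782, 7083 and 5013 in RYGB-Fail, and 6628, 6840.2 and 12625 in RYGB-Success, a difference of 0.72 ± 0.25 between RYGB-Success and Pair-Fed (adjusted p = 0.284, limma). Neurod1 lay between 44.6 and 132 with a difference of 0.70 ± 0.47 (adjusted p = 0.540, limma), and Tcf4 and Tcf12, which encode partners of NeuroD factors in binding DNA, differed by -0.61 and -0.54. Adora1, the inhibitory adenosine receptor, had signals of 279 to 438 and Adora2b 159 to 301, with differences of 0.29 and 0.16. Drd3, Drd4 and Drd5 were below the filter, at 3.59 to 54.5, 4.02 to 82.6 and 0.76 to 47.6. No probe set carried the single symbol Adora3, Slc17a8 or Neurod4.

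The wider dopamine, adenosine and cyclic AMP pathway was taken from a list of 38 genes, of which 34 were tested; 5 of the 38 are also in the striatal list. In RYGB-Success against Pair-Fed none passed in limma, 4 had an unadjusted p under 0.05 (13.1% of all probe sets did), 16 lay below 0 (45.6% of all) and 18 above, with a median of 0.02. These counts were near the shares over all probe sets. The 4 genes were Pde10a at -1.03 ± 0.38, Prkar2b at -0.57 ± 0.26, Prkar1b at 0.52 ± 0.24 and Ppp2r5d at 0.72 ± 0.29, with adjusted p of 0.3004, 0.370, 0.375 and 0.334. Prkar1b and Prkar2b encode regulatory subunits of protein kinase A, and Ppp2r5d a regulatory subunit of protein phosphatase 2A, which dephosphorylates DARPP-32. Of the 34, 5 (14.7%, beside 4.25% of all probe sets) had r above 0.7 with the striatal profile, and 4 of these 5 (Pde10a, Pde1b, Gng7 and Adcy5) are also in the list of other striatal genes. The median lay beside 0.05 for all probe sets tested.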

How the data were processed

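Total RNA of rat fat and hypothalamus was amplified and labelled (Nugen WT Ovation) and hybridised to Affymetrix arrays. Per the labels and the submitters' processing notes, the authors made the deposited intensity values, 1 signal per probe set and array, with MAS5 in GCOS; the values are linear and scaled so that the trimmed mean (2% off each end) is about 500. Genes were named only from probe sets with 1 platform symbol (20826; 436 had several and 9780 none). The 57 control probe sets were left out.

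Here log2 of the signal was taken with no pseudocount, the upper 60% of probe sets by mean over the 9 hypothalamus arrays were kept (18625 of 31042, lowest mean signal 52.7), and groups were compared with limma 3.58.1 in R 4.3.3 (lmFit, eBayes with trend), two-sided, Benjamini-Hochberg over all probe sets tested, threshold 0.05. MAS5 does not model probe effects, so low signals are noisy on the log scale. The number of arrays, 3 per group, limits the precision. Hypothalamus was set against fat with 6 group means over 18 arrays. Correlations used all 362880 orders of 9 arrays in scipy 1.17.1. The fit was tested on simulated data.

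Named beyond the members were, from each list, at most 4 genes with the lowest F-test p, family members, hypothalamic check genes and the 5 nearest profiles per set. The members and lists were chosen with earlier results of these data known. Alternatives were another pseudocount, filters, scalings, array weights, the mean of a gene's probe sets, a replicate block and arrays left out.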

Additional observations from a re-analysis of the deposited data

How the results depend on the processing

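No member passed an adjusted p of 0.05 between hypothalamus groups under any alternative run, and the sign of all 8 genes in RYGB-Success minus Pair-Fed was kept under all of them, with adjusted p from 0.0674 (Neurod2) to 0.928 (Drd2) in limma. The values moved: taking the mean of a gene's probe sets gave Adora2a -0.16, Drd1 -2.33, Rgs9 -0.42 and Slc17a7 -1.19, and with 1 array left out Neurod2 ran from -2.94 to -1.55, Neurod6 -1.73 to -0.84, Slc17a7 -1.57 to -0.61, Adora2a -1.95 to -1.11, Drd1 -1.56 to -0.72, Drd2 -0.77 to -0.16, Ppp1r1b -1.22 to -0.55 and Rgs9 -1.79 to -0.78. The hypothalamus minus fat differences also kept sign and call in the runs where the gene passed the filter. Neurod2 passed it in only some runs, and ran from 1.43 to 1.56 in those with 1 array left out. The mean of a gene's probe sets was not taken for that comparison. The count of all probe sets called in RYGB-Success against Pair-Fed, 2 as reported, was 4 with a pseudocount, 1 with the upper 40% of probe sets, 6 with median centring, 6 with array weights, 5 with only these 2 groups, 4 with arrays held at the filter signal, 0 without the variance trend and 6 without both RYGB-Fail 2 and RYGB-Success 3 (chosen after seeing the data). With 1 array left out at a time it ran from 1 to 64, the latter without RYGB-Success 2; 5 were called without RYGB-Fail 2, and 1 without Pair-Fed 2, Pair-Fed 3 or RYGB-Success 3. In RYGB-Success against RYGB-Fail, 1 as reported, it was 2 with a pseudocount, no filter, quantile normalization, median centring or arrays held, 6 with array weights, 0 with only these 2 groups or without the trend, and 0 to 6 with 1 array left out (6 without RYGB-Success 2). The F test's 2 became 1 with the upper 40%, 0 without the trend, 1 without both low arrays and 1 to 5 with 1 array left out. The cause of these moves was not tested.

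In RYGB-Fail minus Pair-Fed the members' median of -0.48 was 0.21 without RYGB-Fail 2, alone or with RYGB-Success 3, and ran from -0.85 to 0.21 with 1 array left out. Without both arrays Adora2a was at 0.20, Drd2 0.23, Ppp1r1b 0.31 and Rgs9 0.54; array weights gave Neurod6 0.44. With 1 array left out, Neurod2 ran from -1.31 to -0.40, Slc17a7 -1.45 to -0.49, Drd1 -1.33 to -0.05, Neurod6 -0.78 to 0.12, Adora2a -1.59 to 0.20, Drd2 -0.69 to 0.23, Ppp1r1b -1.14 to 0.31 and Rgs9 -0.92 to 0.54. In RYGB-Success minus RYGB-Fail, Slc17a7 ran from -0.34 to 0.045, Adora2a -1.73 to 0.056, Drd1 -1.14 to 0.14, Drd2 -0.74 to 0.22 and Ppp1r1b -1.15 to 0.30.

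Same-numbered arrays of different groups had correlations of deviations from -0.16 to 0.07, and differently numbered arrays from -0.11 to 0.21. The labels do not say whether the numbers pair samples, and so few arrays cannot exclude it. With the replicate number as a block, 2, 0 and 2 probe sets were called in the 3 comparisons and no member was.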
